A study of Mus musculus with 8 samples.

Results

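The cyclin-dependent kinase (CDK) inhibitor genes are the 3 genes of the Cip/Kip family (Cdkn1a, Cdkn1b and Cdkn1c) and the 4 genes of the INK4 family (Cdkn2a, Cdkn2b, Cdkn2c and Cdkn2d). These 7 genes were taken by symbol from the 22504 genes of the expression table, and all 7 were found, each in 1 row. RNA sequencing values of 8 Fah-/- mice of the 129S4 strain background were used, in 3 groups. These mice carry no enzyme for the final step of tyrosine breakdown and stay healthy on NTBC, which blocks the pathway further upstream and is given in the drinking water at 7.5 mg/L. C 8w mice (n = 3) had moderate chronic liver injury (MCLI) on 2.5% of that NTBC dose for 8 weeks, C 12w mice (n = 2) had MCLI for 12 weeks, and C 8w + A 4w mice (n = 3), called the SALI group here, had MCLI for 8 weeks and then severe acute liver injury (SALI), with NTBC withdrawn, for 4 weeks. Every group carries the Fah deletion and a reduced NTBC history, so none of the 8 samples stands for an uninjured liver. Sex and age are not given in the sources used here. The tissue label is liver for C 8w and the SALI group and tumor for C 12w, and how the tumor tissue was separated from the liver around it is not given.

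Values are FPKM, the fragments per kilobase of transcript scaled to the mapped fragments of a sample, so levels may be compared between genes. The number of reads behind a value is not kept, and the depth of each sample is unknown. Summed FPKM lay between 324735 and 399342 per sample, and between 9797 and 10658 genes had an FPKM of at least 1. The extraction text in the labels speaks of retinas. In the 8 samples, however, 12 retina genes summed to between 2.35 and 4.06 FPKM, while 13 hepatocyte genes summed to between 11400 and 17542 FPKM. Libraries of the SALI group carry one series of sample codes and those of C 8w and C 12w another. Code series and the severe injury therefore cannot be told apart in any difference between the SALI group and the others. The SALI group also had more weeks of injury in all than C 8w, and another tissue label than C 12w. C 12w differed from C 8w in both weeks of MCLI and tissue label. In no comparison can the parts of these differences be told apart. Albumin (Alb), the main secreted protein of hepatocytes, was listed at 0 in all 5 libraries of C 8w and C 12w and at 12946 to 16950 FPKM in the 3 of the SALI group. Such a 0 may be a failed estimate. Whether this touched the values of the CDK inhibitor genes was not tested. Nothing in the sources says which samples were processed together. Each sample is treated as a separate mouse, and p-values measure the spread between these samples. The spread of a gene is pooled over the 3 groups and taken as equal in them. Tests with C 12w (n = 2) therefore rest mostly on the spread within the other groups.

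CDK inhibitors are small proteins that hold back the kinases that drive a cell through its division cycle. Cip/Kip proteins (p21, p27 and p57) bind cyclin-CDK complexes of several kinds, above all those of CDK2, whereas INK4 proteins (p15, p16, p18 and p19) bind CDK4 and CDK6 and keep D-type cyclins off them. With the kinases inhibited, the retinoblastoma protein stays on E2F factors and the cell remains in the first gap phase. In the liver most hepatocytes rest outside the cycle and re-enter it after injury, and p21 and p16 are widely used as marks of senescent cells.

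Cdkn1a and Cdkn2b were higher in the SALI group than in C 8w. Cdkn2c, Cdkn1b and Cdkn2b were higher in the tumor-labelled C 12w than in the C 8w group. Cdkn1c was lower in both later groups than in C 8w. Cdkn2d passed the test in none of the 3 comparisons, with the SALI group against C 12w closest to the threshold (adjusted p = 0.0552). Cdkn2a was under 1 FPKM in each of the 8 samples.

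**Figure D1:**
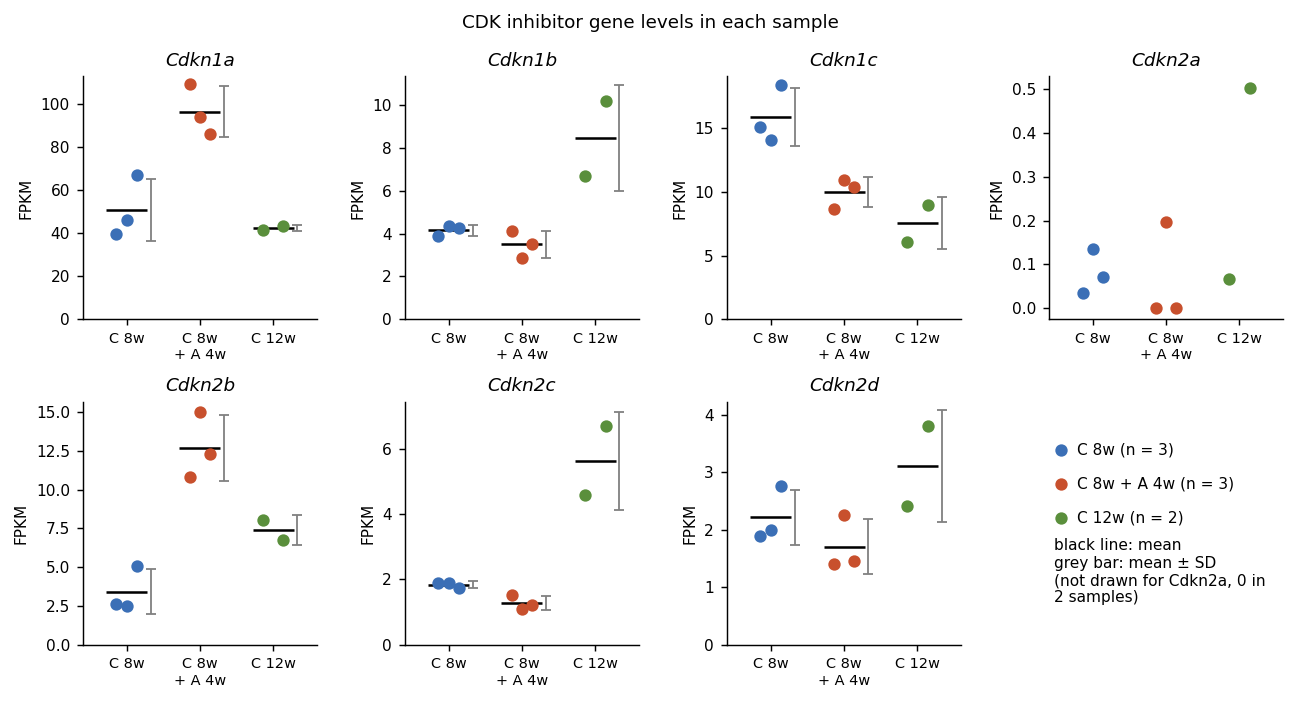
FPKM of the 7 CDK inhibitor genes in each sample, with a linear axis of its own for each gene. Points are samples, black lines are group means and grey bars the mean ± SD. The 3 SALI samples of Cdkn1a sit between 86.1 and 109, above all other samples, while both C 12w samples of Cdkn2c sit above every sample of the other groups.

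Cdkn1a encodes p21, the CDK inhibitor best known as a target of the tumor suppressor p53. Its FPKM was 39.5, 46.0 and 67.0 in the C 8w samples, 109, 94.0 and 86.1 in the SALI samples and 41.4 and 43.2 in the C 12w samples. The SALI samples lay above all others, and the 2 C 12w samples lay within the range of C 8w. Mean FPKM was 96.2 ± 11.4 (SD, n = 3) in the SALI group and 50.9 ± 14.4 (SD, n = 3) in C 8w, a ratio of 1.89. The log2 fold change was 0.94 (SE 0.19, adjusted p = 0.00599). Against C 12w, at 42.3 ± 1.27 (SD, n = 2), the ratio was 2.27 and the log2 fold change 1.16 (SE 0.21, adjusted p = 0.00460). Between C 12w and C 8w no difference was detected (log2 fold change -0.22, 95% interval -0.72 to 0.27, adjusted p = 0.471). The SALI group is labelled C 8w + A 4w in the plots. All fold changes are on the log2(FPKM + 1) scale, which understates the change of low genes. Of the 50-base windows of Cdkn1a transcripts, 8.07% occur in other genes, with AC167363.2, which overlaps Cdkn1a on the opposite strand, sharing the most. The library kit is not stated to keep strand, so reads of the 2 cannot be told apart.

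RefSeq promoter windows (250 bases before to 50 after an annotated start, build GRCm38.p6) were matched for 6 of the 7 genes, in 9 windows. Cdkn1c had no entry. The upstream Cdkn1a start is shown because it holds the paired core of a p53 element, the kind of site through which p53 acts on this gene. The search pattern was CATGNNNNNNCATG on both strands, and 0.712% of all 32851 windows hold it. Of the 9 windows only this one did. The bases before the start are printed at chr17:29090888-29090978 on the plus strand, with the 20 bases around the core pair in capitals.
Cdkn1a: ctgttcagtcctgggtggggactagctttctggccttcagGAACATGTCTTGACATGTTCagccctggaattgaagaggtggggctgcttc
The core pair begins at position -48 from the start. A match of letters is a description of this window, and binding was not measured.

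Cdkn1b encodes p27, which restrains CDK2 in resting cells and is kept low in dividing cells by ubiquitin-dependent breakdown. Its FPKM was 3.87, 4.35 and 4.24 in C 8w, 4.10, 2.87 and 3.53 in the SALI group, and 6.70 and 10.2 in C 12w. Both C 12w samples lay above the other 6, and the ranges of C 8w and the SALI group overlapped. Mean FPKM was 8.46 ± 2.49 (SD, n = 2) in C 12w and 4.15 ± 0.249 (SD, n = 3) in C 8w, a ratio of 2.04, with a log2 fold change of 0.85 (SE 0.18, adjusted p = 0.0170). Without C 8w replicate 1, C 8w replicate 3 or C 12w replicate 3 the adjusted p was 0.0652, 0.0568 and 0.0541. The SALI group, at 3.50 ± 0.614 (SD, n = 3), was lower than C 12w by a log2 fold change of -1.06 (SE 0.18, adjusted p = 0.00318). Against C 8w the log2 fold change was -0.20 (95% interval -0.57 to 0.17, adjusted p = 0.343).

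Cdkn1c encodes p57, an imprinted growth restraint gene expressed from the maternal copy. Its FPKM was 15.1, 14.1 and 18.4 in C 8w, 8.63, 10.9 and 10.4 in the SALI group, and 6.09 and 9.0 in C 12w. Every C 8w sample lay above every sample of the other groups, whose ranges overlapped. Mean FPKM was 15.9 ± 2.27 (SD, n = 3) in C 8w and 9.98 ± 1.20 (SD, n = 3) in the SALI group, a log2 fold change of -0.62 (SE 0.16, adjusted p = 0.0179). This call was lost without C 8w replicate 1, C 8w replicate 3 or SALI group replicate 1 (adjusted p = 0.0510, 0.0677 and 0.0611). C 12w, at 7.55 ± 2.05 (SD, n = 2), differed from C 8w by a log2 fold change of -1.00 (SE 0.18, adjusted p = 0.0103). Between the SALI group and C 12w the log2 fold change was 0.38 (95% interval -0.04 to 0.80, adjusted p = 0.149). It was 0.13 without C 12w replicate 2 (adjusted p = 0.605) and 0.62 without C 12w replicate 3 (adjusted p = 0.0365).

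Summed endothelial markers were also highest in C 8w. The 9 markers summed to 60.6 to 66.0 FPKM in C 8w, 29.4 to 50.7 in the SALI group and 33.4 to 39.4 in C 12w, with none of them at 0 in any sample. Of the 8 that could be tested, 4 were lower and 1 higher in the SALI group than in C 8w, beside 14.1% and 25.3% of all genes. In C 12w against C 8w 4 were lower, beside 6.98% of all genes. Among the lower markers Stab2, a scavenger receptor of sinusoidal endothelium, had log2 fold changes of -0.88 (SE 0.15, adjusted p = 0.00238) and -0.83 (SE 0.17, adjusted p = 0.0138). Also lower in both groups were Eng, a coreceptor for transforming growth factor beta (-0.72 and -0.90), Kdr, a growth factor receptor gene (-0.69 and -0.57), and Clec4g, a sinusoidal lectin gene (-1.35 and -1.52). The call of Kdr in C 12w was lost under equal-sum scaling (adjusted p = 0.0582). Lyve1, a hyaluronan receptor gene, was higher in the SALI group (1.18). Their part in the Cdkn1c values was not tested. In bulk tissue, fewer cells of a type and less RNA per cell cannot be told apart. Of the Cdkn1c windows 24.9% occur in other genes, with Gm44732, which overlaps it in antisense, sharing the most, so its level may include reads of that gene.

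Cdkn2b encodes p15, an INK4 protein known to be induced by transforming growth factor beta. Its FPKM was 2.62, 2.51 and 5.07 in C 8w, 10.8, 15.0 and 12.3 in the SALI group, and 8.06 and 6.73 in C 12w. The 3 groups did not overlap, with C 12w between the other two. Mean FPKM was 12.7 ± 2.11 (SD, n = 3) in the SALI group and 3.40 ± 1.45 (SD, n = 3) in C 8w, a ratio of 3.73. The log2 fold change was 1.67 (SE 0.22, adjusted p = 6.69e-04). C 12w, at 7.40 ± 0.938 (SD, n = 2), was 2.18 times C 8w (log2 fold change 0.98, SE 0.25, adjusted p = 0.0290). That call was lost without C 8w replicate 1, C 8w replicate 2, SALI group replicate 3 or C 12w replicate 2, with an adjusted p between 0.0508 and 0.0981, as well as without a floor (adjusted p = 0.0631), under quantile normalization (adjusted p = 0.0529) and when only these groups were fitted (adjusted p = 0.0592). Between the SALI group and C 12w the log2 fold change of 0.70 (95% interval 0.14 to 1.26) had an adjusted p of 0.0592. It was 0.0427 when only these groups were fitted and 0.0177 without C 8w replicate 3.

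The Cdkn2b promoter is shown as the other gene that was higher after the severe injury. It holds the palindrome TGACGTCA, a cyclic AMP response element, at position -46. Of all windows 1.79% hold this element, and of the 9 windows of the CDK inhibitor genes only this one did. The bases before the start are given at chr4:89311033-89311118 on the minus strand, with the element in capitals.
Cdkn2b: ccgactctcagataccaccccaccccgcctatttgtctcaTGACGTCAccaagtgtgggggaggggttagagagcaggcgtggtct
The GC box GGGCGG, found on either strand in 35.7% of all windows, was present in at least 1 window of each of the 6 genes matched. Matches of other motifs lay in genes not called higher in the SALI group. An E2F site (TTTCCCGC, in 1.07% of all windows) was found in a Cdkn2a window, and an E-box (CACGTG, in 7.15%) in a Cdkn2c window. The p53 core pair was not found in the Cdkn2b window, nor the cyclic AMP response element in the Cdkn1a windows.

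Cdkn2a encodes p16Ink4a and, in another reading frame, the p53 activator p19Arf, and its single row holds transcripts of both. Its FPKM was 0.0352, 0.135 and 0.0717 in C 8w and 0.0664 and 0.503 in C 12w. In the SALI group it was listed at 0 in replicates 1 and 3 and at 0.196 in replicate 2. All 3 groups overlapped, and no sample reached the floor of 1 FPKM, so Cdkn2a was left out of the main test. In a fit without a floor the adjusted p was 0.930 for the SALI group against C 8w, 0.277 against C 12w, and 0.362 for C 12w against C 8w. With the depth unknown, a listed 0 sets no limit on how much of the transcript was present.

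Cdkn2c encodes p18, an INK4 inhibitor of CDK4 and CDK6. Its FPKM was 1.89, 1.90 and 1.73 in C 8w, 1.52, 1.10 and 1.21 in the SALI group, and 4.57 and 6.69 in C 12w. The 3 groups did not overlap, with C 12w highest and the SALI group lowest. C 12w, at 5.63 ± 1.50 (SD, n = 2), was 3.06 times the 1.84 ± 0.0997 (SD, n = 3) of C 8w, a log2 fold change of 1.20 (SE 0.16, adjusted p = 0.00321). It was 4.41 times the 1.28 ± 0.221 (SD, n = 3) of the SALI group, and the log2 fold change of the SALI group against C 12w was -1.53 (SE 0.16, adjusted p = 2.55e-04). Between the SALI group and C 8w the log2 fold change of -0.32 (95% interval -0.65 to 0.00) did not pass (adjusted p = 0.103). It passed under median-ratio scaling (adjusted p = 0.0289) and quantile normalization (adjusted p = 0.0317), when only these groups were fitted (adjusted p = 0.0291), and without C 12w replicate 2 (adjusted p = 0.0291) or C 12w replicate 3 (adjusted p = 0.0287).

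Cdkn2d encodes p19Ink4d, the fourth INK4 protein, which is unrelated to p19Arf. Its FPKM was 1.90, 1.99 and 2.77 in C 8w, 1.41, 2.26 and 1.45 in the SALI group, and 2.42 and 3.80 in C 12w. Both C 12w samples lay above the 3 SALI samples, and C 8w overlapped with both groups. The log2 fold change of the SALI group against C 12w was -0.60 (95% interval -1.07 to -0.13, adjusted p = 0.0552). It passed the threshold without SALI group replicate 2 (adjusted p = 0.0306) and under each of 3 other scalings (adjusted p between 0.0272 and 0.0407). With each sample left out in turn, it ranged from -0.84 to -0.35. Against C 8w the log2 fold change was -0.26 (95% interval -0.68 to 0.17, adjusted p = 0.298) in the SALI group and 0.34 (95% interval -0.13 to 0.81, adjusted p = 0.255) in C 12w. The value of C 12w against C 8w ranged from 0.10 to 0.59 over the same fits.

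**Figure D2:**
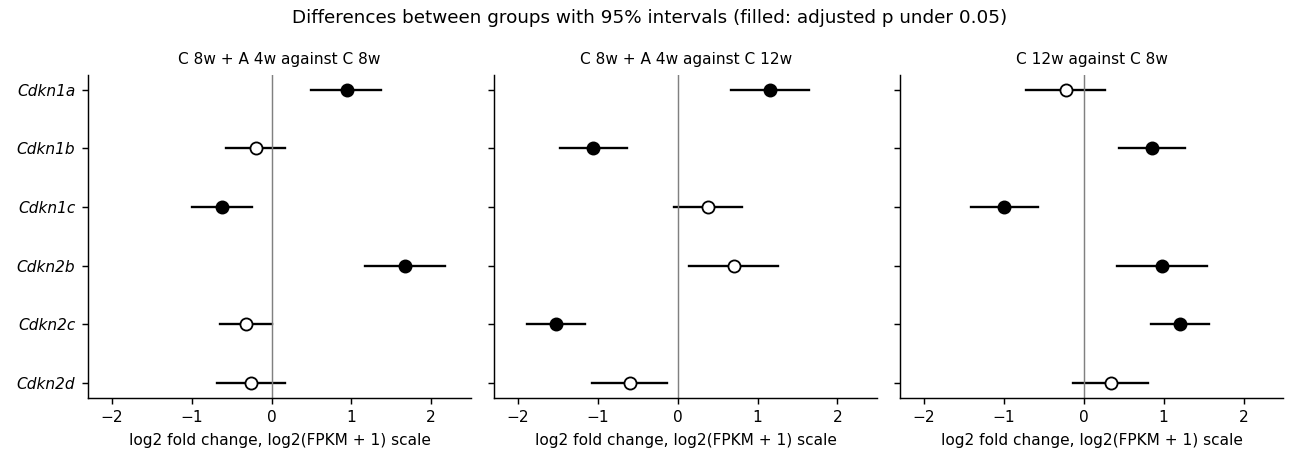
Log2 fold changes of the 6 tested CDK inhibitor genes in the 3 comparisons, on the log2(FPKM + 1) scale with limma 95% intervals. Filled points have an adjusted p under 0.05. Cdkn1a lies at 0.94 and 1.16 in the panels with the SALI group and at -0.22 between the MCLI groups, whereas Cdkn2c lies at -1.53 against C 12w and at 1.20 in C 12w against C 8w.

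In the SALI group against C 8w, 2 of the 6 tested genes were higher (Cdkn1a and Cdkn2b), 1 was lower (Cdkn1c) and 3 were not called. Over all 10244 genes tested, 25.3% were higher and 14.1% lower in this comparison. In the SALI group against C 12w, 1 was higher (Cdkn1a), 2 were lower (Cdkn1b and Cdkn2c) and 3 were not called, beside 17.4% higher and 15.4% lower of all genes. In C 12w against C 8w, 3 were higher (Cdkn1b, Cdkn2b and Cdkn2c), 1 was lower (Cdkn1c) and 2 were not called, beside 12.2% and 6.98% of all genes. Median log2 fold changes of the 6 genes were -0.23, -0.11 and 0.59 in these comparisons, and those of all genes 0.12, 0.01 and 0.12. The 3 comparisons share samples, so their counts are not independent. The direction of calls over all genes depended on the scaling. With median-ratio scaling, which brings the medians of all genes to -0.012, 0.000 and -0.011, the higher share of all called genes went from 64.2% to 46.7% for the SALI group against C 8w and from 63.6% to 44.0% for C 12w against C 8w. When all samples were set to the same summed FPKM it was 53.5% for the SALI group against C 8w, 72.2% for C 12w against C 8w and, for the SALI group against C 12w, 35.9% in place of 53.1%. Quantile normalization gave 47.1% for the SALI group against C 8w and 46.9% for C 12w against C 8w. All 6 genes kept their direction under these scalings. The split of calls among them became 2 higher and 2 lower in the SALI group against C 8w under median-ratio scaling and quantile normalization, 1 higher and 3 lower in the SALI group against C 12w under each of the 3 scalings, and 2 higher and 1 lower in C 12w against C 8w under quantile normalization.

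Levels of the 7 genes were very unequal. Their summed FPKM was 65.0, 71.0 and 99.3 in C 8w, 135, 126 and 115 in the SALI group, and 69.3 and 80.2 in C 12w. Cdkn1a had the highest FPKM of the 7 in each sample, and its share of the sum was 60.9% to 67.5% in C 8w, 74.4% to 80.4% in the SALI group, and 59.7% and 53.9% in C 12w. Without Cdkn1a the sums overlapped between all groups, at 25.0 to 32.3 FPKM in C 8w, 26.5 to 32.3 in the SALI group, and 27.9 and 36.9 in C 12w. In C 8w the second gene was Cdkn1c, with 18.6% to 23.3% of the sum, whereas in each SALI sample it was Cdkn2b, with 8.00% to 11.8%. In C 12w the order of Cdkn1b, Cdkn1c and Cdkn2b differed between the 2 samples. INK4 genes together held 9.21% to 9.93% of the sum in C 8w, 10.2% to 14.7% in the SALI group, and 21.8% and 22.1% in C 12w. These shares are levels of mRNA, and protein was not measured here. The ratio of Cdkn1a to Cdk2, the mRNA of a kinase that p21 binds, was 15.0 to 29.8 in C 8w, 39.9 to 49.2 in the SALI group, and 10.3 and 7.89 in C 12w.

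**Figure D3:**
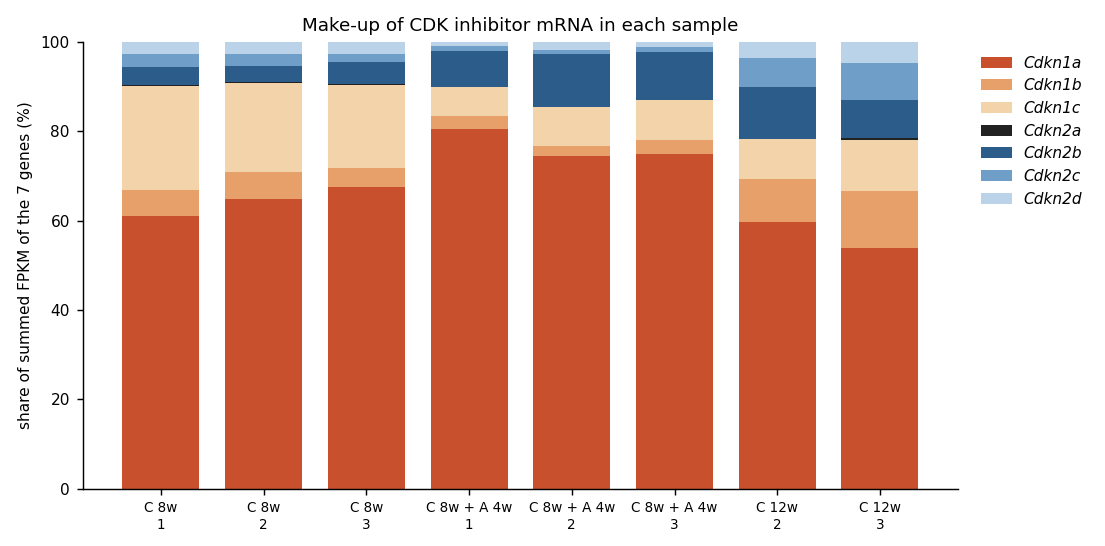
Share of each gene, in percent, in the summed FPKM of the 7 CDK inhibitor genes, with 1 bar per sample labelled by group and replicate number. Cdkn1a takes the largest share of every bar, from 53.9% to 80.4%, and the blue INK4 segments are widest in the C 12w samples, at 21.8% and 22.1% with Cdkn2a (black) included.

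Some markers of liver cell types also differed between the groups, and their part in the values of the CDK inhibitor genes was not tested. Counts of called markers are to be read beside the shares of all genes given above for each comparison. Of 13 hepatocyte genes tested, 2 were higher and 5 lower in the SALI group than in C 8w, where Cdkn1a and Cdkn2b were higher. The shares of all genes there were 25.3% and 14.1%. The median log2 fold change of the 13 genes was -0.77, beside 0.12 for all genes. Against C 12w, 2 were higher and 4 lower (median -0.29), with 6 lower under equal-sum scaling and 7 under quantile normalization, and in C 12w against C 8w 1 was higher and 2 were lower (median 0.15). In that comparison the split was 2 lower under median-ratio scaling (median -0.01), 2 higher and 2 lower under equal-sum scaling (median 0.24) and 3 higher and 2 lower under quantile normalization (median 0.33), with Apoa1 called higher under the last and under equal-sum scaling (adjusted p = 0.0215 and 0.0251). Compared with C 8w, the SALI group had 6 lower under median-ratio and 7 lower under equal-sum scaling. The summed level of these genes overlapped between the groups, at 13279 to 16277 FPKM in C 8w, 12538 to 15074 in the SALI group, and 17542 and 11400 in C 12w, and Alb was the marker listed at 0. Ass1, a urea cycle enzyme, lay at 12.2 to 15.0 FPKM in C 8w, 267 to 283 in the SALI group, and 37.4 and 5.86 in C 12w. Its log2 fold changes were 4.28 (SE 0.51, adjusted p = 3.80e-04) against C 8w and 4.09 (SE 0.57, adjusted p = 0.00115) against C 12w in the SALI group. As for Alb, code series and injury cannot be told apart here. Apoa1, an apolipoprotein gene, was higher in the SALI group than in C 8w (1.04). Hpd, the tyrosine pathway enzyme that NTBC blocks, was lower than in C 8w in the SALI group (-1.46, SE 0.21, adjusted p = 0.00116) and in C 12w (-1.11, SE 0.24, adjusted p = 0.0174). Cyp2e1, a cytochrome of drug metabolism, was lower than in C 8w in both groups (-1.25 and -2.77) and higher in the SALI group than in C 12w (1.52), and the urea cycle enzyme gene Arg1 was lower in the SALI group than in C 8w (-0.96). Cps1 and Serpinc1 were lower in the SALI group than in C 12w (-1.25 and -0.85) and C 8w (-1.10 and -0.90). Apob was lower in the SALI group than in C 12w (-0.75), and Apob was higher in C 12w against C 8w (0.88), although not under median-ratio scaling (adjusted p = 0.0539).

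Of 9 stellate cell or fibroblast genes tested, 1 was lower in the SALI group than in C 8w, and 2 were higher and 2 lower than in C 12w. In C 12w against C 8w 2 were higher and 1 lower. The share lower in the SALI group than in C 8w was 11.1%, near the 14.1% of all genes. Against C 12w it was 22.2% in each direction, beside 17.4% higher and 15.4% lower of all genes. Col3a1, a fibrillar collagen gene, was lower in the SALI group than in C 8w (-1.09) and C 12w (-2.69) and higher in C 12w against C 8w (1.60). Col1a2, another collagen gene, was lower in the SALI group than in C 12w (-1.74) and higher in C 12w against C 8w (1.29). Dcn, a matrix proteoglycan gene, was higher in the SALI group than in C 12w (1.13) and lower in C 12w against C 8w (-0.71), and Lrat, a retinoid storage enzyme gene of stellate cells, was higher in the SALI group than in C 12w (1.32). Of 9 macrophage genes tested, Cd14, a receptor for bacterial lipopolysaccharide, was the one called, higher in the SALI group than in C 8w (1.63, SE 0.24, adjusted p = 0.00130) and C 12w (1.69, SE 0.27, adjusted p = 0.00244). In C 12w against C 8w limma called 0 of the 9, with 1 at an unadjusted p under 0.05. Of 5 cholangiocyte genes tested, Epcam, an epithelial adhesion molecule gene, was higher in the SALI group than in C 8w (1.83), and Epcam (1.42), Sox9 (2.44) and Spp1 (3.03) were higher in C 12w against C 8w. There the call of Epcam was lost under median-ratio scaling and quantile normalization (adjusted p = 0.0522 and 0.0586), and that of Spp1 under quantile normalization (adjusted p = 0.0529). These values rest largely on C 12w replicate 3, in which Sox9 was at 19.9 FPKM, against 3.61 in replicate 2 and 0.540 to 0.959 in C 8w. Without replicate 3 the log2 fold changes were 1.35 for Sox9 (adjusted p = 0.0116), 1.16 for Spp1 (adjusted p = 0.0187) and 0.65 for Epcam (adjusted p = 0.193). Sox9 was lower in the SALI group than in C 12w under each of the 3 other scalings (adjusted p between 0.0417 and 0.0484) but not called without them (-1.53). Its FPKM in the SALI group, 1.81 to 3.38, lay close to that of C 12w replicate 2, so this difference also rests largely on replicate 3. Of T or NK cell genes 0 of 9 reached the floor. Of B or plasma cell genes 1 of 6 did and of neutrophil genes 2 of 6, and limma called 0 of these 3 in each comparison, with 0 at an unadjusted p under 0.05.

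The samples of C 12w were unlike each other in several of these genes. FPKM in C 12w replicate 3 was 1.53 times that in replicate 2 for Cdkn1b, 1.48 times for Cdkn1c, 1.46 times for Cdkn2c and 1.57 times for Cdkn2d, while the ratio was 1.04 for Cdkn1a and 0.835 for Cdkn2b. Cholangiocyte markers also differed between the 2 samples, with a sum of 9 markers of 32.2 FPKM in replicate 2 and 355 in replicate 3, of which 311 came from Spp1, an extracellular glycoprotein. In the other groups that sum was 13.5 to 18.8 (C 8w) and 30.8 to 37.2 (the SALI group). Its part in the differences between the C 12w samples was not tested. Within the SALI group, 11 macrophage markers summed to 335 FPKM in replicate 2, against 154 and 113 in the other two and 82.6 to 165 in the 5 samples of the MCLI groups. Cdkn2b was also highest in that replicate, and no call of Cdkn2b was lost when it was left out.

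Patterns over the 8 samples were compared by the root mean squared difference of row z-scores (0 for the same pattern), as a description without a test. This measure ignores the size of a change, and all points share the same libraries. Cdkn1b and Cdkn2c had nearly the same pattern (0.18), and Cdkn1b was among the 3 genes nearest to Cdkn2c out of all genes kept. Cdkn1a and Cdkn2b were 0.68 apart, and Cdkn1a and Cdkn2c 1.72, the most of any pair. Nearest to Cdkn1a were Sart1 (0.14), Brix1 (0.15) and Bcl2l1 (0.15). Their ranges were narrower than that of Cdkn1a, such as 9.67 to 12.6 FPKM in C 8w and 13.8 to 17.1 in the SALI group for Bcl2l1, which encodes an inhibitor of apoptosis. Nearest to Cdkn1b were Crb3 (0.12), Mapk8 (0.17) and Fignl2 (0.17), and nearest to Cdkn2c, besides Cdkn1b, were Pigt (0.16) and Mapk8 (0.19). Myo1c (0.16), Rrp1 (0.18) and Ccdc92 (0.19) were nearest to Cdkn2b, and Nosip (0.16), Cmpk2 (0.20) and Polr3k (0.25) to Cdkn2d. Hist1h2bc, Mthfd2l and Hspa1b were nearest to Cdkn1c, each at 0.21.

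Counts of the gene lists that follow are to be read beside the shares of all genes, which were 25.3% higher and 14.1% lower in the SALI group against C 8w, 17.4% and 15.4% in the SALI group against C 12w, and 12.2% and 6.98% in C 12w against C 8w. The upstream factor p53 and its regulators were measured beside Cdkn1a. Of 5 such genes tested, 4 were higher in the SALI group than in C 8w and 2 were higher than in C 12w, and 3 were higher in C 12w against C 8w. All others were not called. The 4 became 2 under median-ratio scaling, 1 under equal-sum scaling and 2 under quantile normalization. Trp53 itself had 21.2 ± 0.970 FPKM (SD, n = 3) in the SALI group, 16.6 ± 1.07 (SD, n = 3) in C 8w and 14.6 ± 0.905 (SD, n = 2) in C 12w. The log2 fold change was 0.34 (SE 0.10, adjusted p = 0.0271) against C 8w and 0.51 (SE 0.11, adjusted p = 0.00921) against C 12w. The call of Trp53 against C 8w was lost under median-ratio, equal-sum and quantile scaling (adjusted p = 0.150, 0.152 and 0.0977), and that against C 12w under equal-sum scaling (adjusted p = 0.0979). Mdm4, an inhibitor of p53, was higher than in C 8w in the SALI group (log2 fold change 0.61) and in C 12w (0.68). Atr, a kinase that signals replication stress, was likewise higher in both (0.32 and 0.42), but not against C 8w in the SALI group under any of the 3 scalings (adjusted p between 0.121 and 0.201), nor in C 12w under median-ratio scaling (adjusted p = 0.0704) or quantile normalization (adjusted p = 0.181). Mdm2, the ubiquitin ligase that p53 induces and that degrades it, was higher in the SALI group than in C 12w (0.68, SE 0.17, adjusted p = 0.0187), although not under equal-sum scaling (adjusted p = 0.0621), and Chek2, a checkpoint kinase, was higher in C 12w against C 8w (0.69, SE 0.13, adjusted p = 0.0106) and in the SALI group against C 8w (0.36, adjusted p = 0.0351, and 0.115 under equal-sum scaling).

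Of 16 other genes known to be induced by p53, 6 were higher and 2 lower in the SALI group than in C 8w, with a median log2 fold change of 0.47 beside 0.12 for all genes. The split was 4 higher and 2 lower under each of the 3 other scalings. Against C 12w, 9 were higher and 1 lower (median 0.51 beside 0.01), and 6 were higher under equal-sum scaling. In C 12w against C 8w, 1 was higher and 4 were lower (median -0.26 beside 0.12). Zmat3, an RNA-binding protein gene, had 11.3 ± 2.02 FPKM in the SALI group, 6.30 ± 1.29 in C 8w (both SD, n = 3) and 3.21 ± 0.467 in C 12w (SD, n = 2), and was called in all 3 comparisons. Its log2 fold changes were 0.75 (SE 0.17, adjusted p = 0.00890) and 1.54 (SE 0.19, adjusted p = 6.07e-04) for the SALI group and -0.79 (SE 0.19, adjusted p = 0.0250) for C 12w against C 8w. Trp53inp1, a stress-induced p53 cofactor gene, was higher in the SALI group than in C 8w (0.85) and C 12w (1.10). Ccng1, which encodes cyclin G1, and Eda2r, a death receptor gene, were higher in the SALI group than in C 12w (1.61 and 1.63). Ccng1 was lower in C 12w than in the C 8w group (-0.91) and higher in the SALI group than in C 8w (0.70, adjusted p = 0.0412), the last not under any of the 3 other scalings (adjusted p between 0.0533 and 0.115). The genes did not all move with Cdkn1a. Bbc3, which encodes the apoptosis inducer PUMA, was lower in the SALI group than in C 8w (-1.13, SE 0.23, adjusted p = 0.00599) and than in C 12w (-0.87, SE 0.26, adjusted p = 0.0334). Fas, a death receptor gene, was lower than in C 8w in the SALI group (-0.57) and in C 12w (-0.80), and Eda2r was lower in C 12w (-1.18). Gadd45a, a growth arrest gene, was higher than in C 8w in both the SALI group (1.96) and C 12w (2.10), although 15.6% of its windows occur in other genes.

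**Figure D4:**
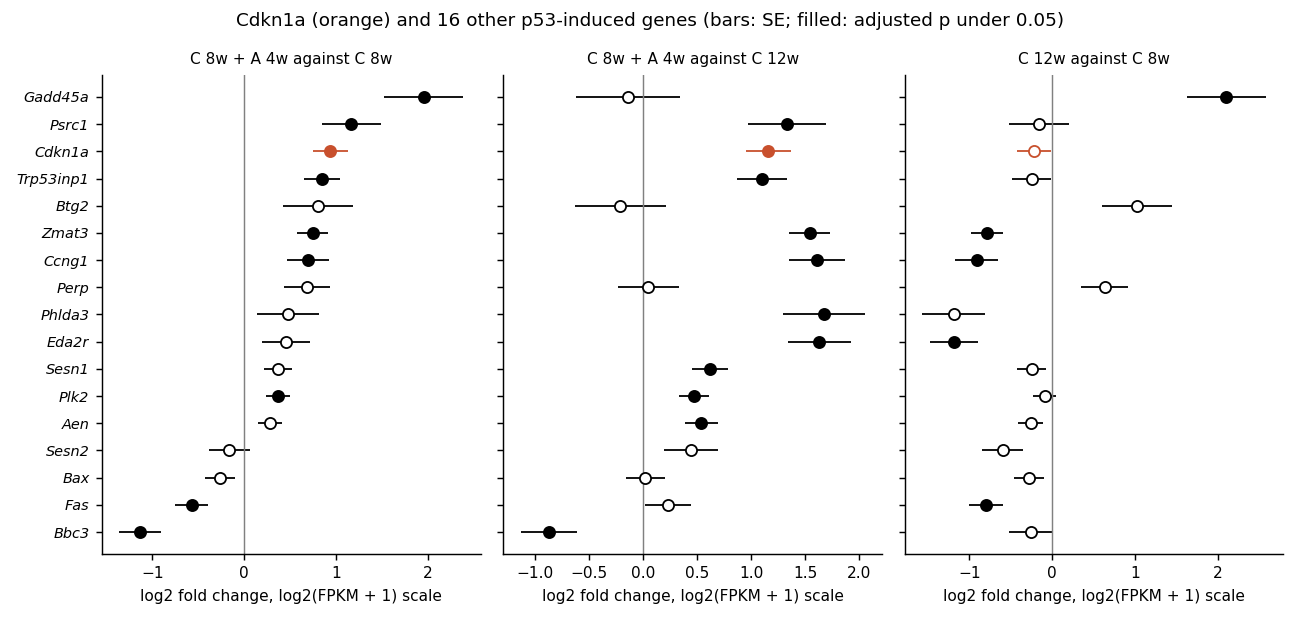
Log2 fold changes of Cdkn1a (orange) and 16 other p53-induced genes in the 3 comparisons, each panel with its own axis, ordered by the SALI group against C 8w. Bars are standard errors, filled points have an adjusted p under 0.05. Cdkn1a is filled in both panels with the SALI group, and Bbc3 (PUMA) lies at -1.13 and -0.87 in them.

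Other factors known to act on CDK inhibitor genes were called in both directions. Of 20, 6 were higher and 2 lower in the SALI group than in C 8w, 1 higher and 4 lower than in C 12w, and 7 higher and 3 lower in C 12w than in the C 8w group, with medians of 0.17, -0.07 and 0.28. The share higher in the SALI group than in C 8w was 30.0%, near the 25.3% of all genes, and the 35.0% higher in C 12w against C 8w stood beside 12.2% of all genes. Against C 8w the SALI group had 3 higher and 3 lower under median-ratio scaling and 4 of each under quantile normalization, and in C 12w against C 8w 1 was lower under equal-sum scaling. Klf6, a zinc-finger activator of Cdkn1a, was higher than in C 8w in both other groups, at 5.15 ± 0.747 FPKM in C 8w (SD, n = 3), 21.2 ± 5.41 in the SALI group (SD, n = 3) and 24.3 ± 5.34 in C 12w (SD, n = 2). Its log2 fold changes were 1.83 (SE 0.19, adjusted p = 1.97e-04) and 2.03 (SE 0.22, adjusted p = 0.00151). Ets2, an ETS factor, did the same (1.35 and 1.37). Myc, a repressor of Cdkn1a and Cdkn2b, was higher than in C 8w in the SALI group (0.89, SE 0.16, adjusted p = 0.00337) and in C 12w (0.90, SE 0.18, adjusted p = 0.0138). Cebpa, a hepatocyte factor whose protein binds p21, was lower in the SALI group than in C 8w (-0.47) and C 12w (-0.41). Foxo1, whose product is an activator of Cdkn1b, was lower than in C 8w in both groups (-0.42 and -0.47), and Foxo3 was lower in C 12w (-0.60), both calls in C 12w being lost under equal-sum scaling (adjusted p = 0.112 and 0.0879). The Polycomb genes, whose products silence the Cdkn2a locus, did not move as one. Cbx7 was higher in the SALI group than in C 12w (1.02) and lower in C 12w than in the C 8w group (-0.63), whereas Suz12 and Ezh2 were lower in the SALI group than in C 12w (-0.60 and -0.78) and higher in C 12w than in the C 8w group (0.56 and 0.88). Cbx7 was also higher in the SALI group than in C 8w (0.39, adjusted p = 0.0271), but not under the 3 other scalings (adjusted p between 0.0792 and 0.147). Hes1, a Notch target and repressor, was higher in C 12w than in the C 8w group (0.90) and lower in the SALI group than in C 12w (-0.72).

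Abundance of Cip/Kip proteins is also set by ubiquitin ligases. Of 10 genes of these ligases tested, 4 were higher and 6 not called in the SALI group against C 8w, 2 higher and 1 lower than in C 12w, and 5 higher and 1 lower in C 12w than in the C 8w group (medians 0.31, -0.23 and 0.14). The 4 of 10 higher in the SALI group than in C 8w stood beside 25.3% of all genes, and the 5 of 10 higher in C 12w against C 8w beside 12.2%. The 4 became 2 higher and 1 lower under median-ratio scaling and quantile normalization and 1 higher under equal-sum scaling. Against C 12w the split was 2 higher and 2 lower under equal-sum scaling and 2 higher and 3 lower under quantile normalization, and in C 12w against C 8w it was 3 higher and 2 lower under median-ratio scaling, 5 higher under equal-sum scaling and 4 higher and 1 lower under quantile normalization. Rbx1, the RING subunit of cullin ligases, had 26.0 ± 0.904 FPKM in the SALI group (SD, n = 3), 12.9 ± 0.710 in C 8w (SD, n = 3) and 10.8 ± 1.54 in C 12w (SD, n = 2). Its log2 fold changes were 0.96 (SE 0.11, adjusted p = 2.96e-04) and 1.20 (SE 0.12, adjusted p = 2.08e-04). Skp1a, the adaptor of the same ligases, was higher in the SALI group than in C 8w (0.45) and C 12w (0.98) and lower in C 12w than in the C 8w group (-0.53). Both smaller differences of Skp1a were lost under 1 or more of the scalings. Cks1b, a cofactor in p27 breakdown, was higher in C 12w against C 8w (1.03) and in the SALI group against C 8w (0.74), the latter not under equal-sum scaling (adjusted p = 0.0681) or quantile normalization (adjusted p = 0.0531). Cdc20, which activates the anaphase-promoting complex and peaks in mitosis, was higher in C 12w than in the C 8w group (3.09, SE 0.16, adjusted p = 7.25e-05) and lower in the SALI group than in C 12w (-2.71, SE 0.16, adjusted p = 6.41e-06). Fbxw7 (0.56) and Ddb1 (0.52), substrate receptor and adaptor subunits, were higher in C 12w against C 8w, Ddb1 not under median-ratio scaling (adjusted p = 0.0582). Fbxw7 was also higher in the SALI group than in C 8w (0.31, adjusted p = 0.0434), but not under the 3 other scalings (adjusted p between 0.107 and 0.150).

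Among the kinases and cyclins that the inhibitors bind, 8 of 12 could be tested. Against C 8w the SALI group had 2 of them higher, Ccne1 (cyclin E1, log2 fold change 0.93, SE 0.14, adjusted p = 0.00121) and Cdk4 (0.49), and in C 12w against C 8w 3 were higher, Ccne1 (0.91), Ccne2 (0.87) and Cdk2 (0.67). Between the SALI group and C 12w, Cdk2 was lower in the SALI group (-0.88, SE 0.17, adjusted p = 0.00624). Ccnd2, which encodes cyclin D2, was lower there too under each of the 3 other scalings (adjusted p between 0.0265 and 0.0485) but not without them (-0.42, adjusted p = 0.0585). Against C 8w it was lower in the SALI group under median-ratio scaling (adjusted p = 0.0148) and quantile normalization (adjusted p = 0.00851), again not without them (-0.37, adjusted p = 0.0578). Medians were 0.39, 0.68 and, for the SALI group against C 12w, -0.06. Of 7 retinoblastoma and E2F genes tested, E2f3 was higher than in C 8w in both the SALI group (0.75) and C 12w (0.74). Rbl2, a retinoblastoma relative of resting cells, was lower in the SALI group than in C 8w (-0.48). E2f5 was higher in C 12w than in the C 8w group (0.66), and E2f1 was lower in the SALI group than in C 12w (-1.15). E2f5 was also lower there under median-ratio (adjusted p = 0.0496) and equal-sum scaling (adjusted p = 0.0277). Their medians were 0.25, 0.47 and -0.20 in the same order. Cdk4 was not called under equal-sum scaling (adjusted p = 0.0766) or quantile normalization (adjusted p = 0.0520), nor Rbl2 under equal-sum scaling (adjusted p = 0.0509), Cdk2 in C 12w against C 8w under quantile normalization (adjusted p = 0.0761), or E2f5 under median-ratio scaling (adjusted p = 0.0506) and quantile normalization (adjusted p = 0.0823).

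The summed level of proliferation genes was, like those of Cdkn1b and Cdkn2c, highest in C 12w. The 18 listed genes summed to 18.5 to 24.0 FPKM in C 8w, 36.9 to 46.1 in the SALI group, and 73.2 and 126 in C 12w. Pcna made up 20.5 to 25.6 FPKM of the SALI sums and 3.88 to 5.14 of those in C 8w. Without it the sums of C 8w (14.6 to 18.9) and the SALI group (median 17.1, highest 20.5) overlapped, and those of C 12w were 68.2 and 114. Only 8 passed the floor, and a gene expressed in the 2 C 12w samples alone cannot reach it in 4 samples. Of these 8, 6 were higher in C 12w against C 8w (median log2 fold change 1.16), and 6 were lower and 1 higher in the SALI group than in C 12w (median -1.10). Aurka, a mitotic kinase gene, had log2 fold changes of 1.83 (SE 0.17, adjusted p = 0.00103) and -1.76 (SE 0.17, adjusted p = 1.50e-04). Those of Rrm2, a ribonucleotide reductase subunit, were 2.51 and -2.61, and those of Mcm5, a replication helicase subunit, were 1.92 and -2.41. Against C 8w the SALI group had 2 higher, Pcna (the DNA polymerase clamp, 2.17) and Mcm7 (0.61), with a median of 0.03 that became -0.09 under median-ratio scaling and quantile normalization and -0.03 under equal-sum scaling. Mcm5 was then lower than in C 8w under median-ratio scaling (adjusted p = 0.0361) and quantile normalization (adjusted p = 0.0407). Mcm7 was lower in the SALI group than in C 12w under each of the 3 other scalings (adjusted p between 0.0327 and 0.0449), which made 7 genes lower there. Pcna was also higher in the SALI group than in C 12w (1.45), and Mcm7 was higher in C 12w against C 8w (1.11). Pcna and Mcm7 share 19.1% and 23.3% of their windows with other genes. The part of dividing cells in the Cdkn1b and Cdkn2c values was not tested.

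Some genes of the senescence-associated list were also measured. Plaur, the urokinase receptor gene, was higher than in C 8w in both the SALI group (2.73) and C 12w (2.51). Igfbp3, which encodes a binding protein of insulin-like growth factors, was higher in the SALI group than in C 8w (0.60), but not under any of the 3 other scalings (adjusted p between 0.106 and 0.144). Cxcl1, a chemokine gene, was higher in C 12w than in the C 8w group (1.86) and lower in the SALI group than in C 12w (-2.11). Lmnb1, a nuclear lamin gene whose loss is used as a mark of senescent cells, lay at 2.02 to 2.81 FPKM in C 8w, 1.92 to 2.24 in the SALI group, and 3.75 and 7.28 in C 12w. It was higher in C 12w than in both other groups, with log2 fold changes of 0.86 against C 8w and, for the SALI group against C 12w, -1.04, and was not called between the SALI group and C 8w (-0.18, SE 0.20, adjusted p = 0.497).

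Many calls of these list genes were lost when 1 sample was left out. In C 12w against C 8w, calls over all genes also became fewer whichever C 8w sample was left out. Each of the 8 samples was left out in turn for the named genes of all lists. In the SALI group against C 8w 22 of 44 calls were lost at least once, in the SALI group against C 12w 7 of 34 and in C 12w against C 8w 33 of 48, and 0 calls turned direction. The calls lost in the SALI group against C 8w were those of Apoa1, Arg1, Atr, Cbx7, Ccng1, Cdk4, Cebpa, Chek2, Cks1b, Col3a1, Cps1, Fas, Fbxw7, Foxo1, Igfbp3, Lyve1, Mcm7, Rbl2, Serpinc1, Skp1a, Trp53 and Trp53inp1, most of them, 19, without C 8w replicate 1. Against C 12w it lost Apob, Bbc3, Cebpa, Cps1, E2f1, Mdm2 and Serpinc1. In C 12w against C 8w the genes were Apob, Atr, Cbx7, Ccne2, Ccng1, Cdk2, Cks1b, Clec4g, Col1a2, Col3a1, Cxcl1, Dcn, Ddb1, E2f3, E2f5, Eda2r, Epcam, Ezh2, Fas, Fbxw7, Foxo1, Foxo3, Gadd45a, Hpd, Kdr, Lmnb1, Mdm4, Myc, Skp1a, Sox9, Spp1, Suz12 and Zmat3, with 30 lost without C 8w replicate 1, 28 without C 8w replicate 3, 21 without C 8w replicate 2 and 20 without C 12w replicate 3. Without C 12w replicate 3 the log2 fold change against C 8w fell to 0.45 for Ccne2, 0.64 for Cks1b, 0.46 for Lmnb1 and 0.74 for Col1a2 and was -0.54 for Ccng1, -0.70 for Eda2r and -0.69 for Hpd. For the SALI group against C 12w it was then -0.56 for E2f1, -0.64 for Lmnb1 and -0.49 for Apob. Without C 12w replicate 2 it was -0.40 for Serpinc1, -0.59 for Cps1 and 0.89 for Pcna.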

How the data were processed

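Liver and tumor RNA of 8 Fah-/- mice was compared in 3 groups taken from the titles. The authors deposited FPKM values in a table of 22504 Ensembl genes, 22314 of them paired with a symbol, with 0 columns of other samples. The submitters' processing notes name Bowtie 0.12.2 and mm8. The quantifier and annotation are not given in the sources used here. FPKM keeps no counts, and the low values gave no step common to all samples from which reads could be recovered.

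The 10244 genes that reached an FPKM of 1 in 4 or more of 8 samples were compared as log2(FPKM + 1) with limma 3.58.1 in R 4.3.3 (lmFit, eBayes with a trend, two-sided), in one fit of the 3 groups, with Benjamini-Hochberg adjustment over all genes and a threshold of 0.05. The test was checked on simulated data. The 7 members and all lists were chosen with earlier results of these data known. Named were the 7 members, of each list up to 3 called genes per comparison and direction with the smallest adjusted p among genes whose groups did not overlap, and for each member the 3 genes of nearest pattern. One listed gene is not reported here, and no counts are given for its list. Alb, Spp1, Ccnd2 and Cdk2 ratios, and the further calls of named genes in other comparisons, were singled out with their values in view. For shared sequence, 50-base windows of GENCODE M21 transcripts (GRCm38) were looked up in all other genes, and the authors' annotation may differ. Promoter windows are from RefSeq (GRCm38.p6), and no coordinates of the expression table were used. Replicate numbers of C 8w + A 4w follow the order of the samples and pair nothing.

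Alternatives were a pseudocount of 0.1, floors of 0.5, 0.1 or none, median-ratio, equal-sum and quantile scaling, a constant prior variance, fits of the compared groups alone, a log2 fold change of at least 1, each sample left out and a replicate block. The crossed pairing, the scalings and left-out samples for list genes, and the proliferation sum without Pcna were added after seeing the data. The promoter motifs searched on both strands were the p53 core pair, GC box (GGGCGG), E-box (CACGTG), E2F (TTTCCCGC and TTTGGCGC), FOXO (GTAAACA), cyclic AMP response element (TGACGTCA) and heat shock element (GAANNTTCNNGAA).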

Additional observations from a re-analysis of the deposited data

How the results depend on the processing

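Over the members' fold changes and adjusted p-values, 285 of the alternative values kept the direction and side of the threshold, 13 crossed to an adjusted p under 0.05 and 17 crossed out, and none turned direction with a call. Cdkn1a and Cdkn2b in the SALI group against C 8w, and Cdkn1a, Cdkn1b and Cdkn2c in the SALI group against C 12w, kept their calls in all 17 alternatives fitted to them. The adjusted p ranged from 0.00181 to 0.0274 for Cdkn1a and from 2.02e-04 to 0.00481 for Cdkn2b against C 8w. In C 12w against C 8w, Cdkn2b passed in 10 of 18 alternatives, with an adjusted p between 0.0125 and 0.186. Requiring also a log2 fold change of at least 1 left 1 member called in the SALI group against C 8w (3 without it) and 1 in C 12w against C 8w (4 without it), fewer by construction. Leaving out each sample in turn gave 2 to 4, 3 to 4 and 2 to 4 called members in the SALI group against C 8w, the SALI group against C 12w and C 12w against C 8w. The 2 in the last came without C 8w replicate 1. Where C 12w was left with 1 sample, that sample is assumed to vary like the other groups.

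The 109 calls by which list genes were named gave 327 values under the 3 other scalings. Of these values, 295 stayed called, 32 were lost and 0 changed sign. These calls had the smallest adjusted p of their lists, and further calls of named genes are not counted. Among the further calls, those of Cbx7, Fbxw7 and, in the SALI group, Ccng1 were lost under all 3 scalings. Those of Chek2 and Kdr were lost under equal-sum scaling only, and the rest stayed called.

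Over all genes the count of calls in the SALI group against C 8w was 4034, and 2469 without C 8w replicate 1 and 1128 with the fold limit. In the SALI group against C 12w it was 3356, and 1996 with only these groups fitted and 1177 with the fold limit. In C 12w against C 8w it was 1962, and 533 with the fold limit, 677, 941 and 720 without C 8w replicates 1, 2 and 3, and 3702 without C 12w replicate 2. The cause of these shifts was not tested.

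Replicate numbers 2 and 3 occur in both MCLI groups, but belong to different mice and did not deviate together (correlation -0.189 over 10244 genes). With the number as a replicate block, fitted to these 4 samples, 0 of the 6 members tested and 252 genes were called, with an adjusted p of 0.153 for Cdkn1b, 0.0634 for Cdkn1c, 0.186 for Cdkn2b and 0.0577 for Cdkn2c. At an unadjusted p under 0.05 limma gave 4 members and 1841 genes in this fit. The crossed pairing called 0 members and 16 genes (4 and 2363 at an unadjusted p under 0.05). With 2 to 3 samples a group and unknown depth, intervals are wide and low genes such as Cdkn2a cannot be compared.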
